A study of Homo sapiens with 6 samples.

Results

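The genes described here are 6 transcripts known to respond to low oxygen, VEGFA, CA9, CA12, SLC2A3, DDIT4 and BNIP3L, taken by gene name from a table of 1630 genes. All 6 have a row. The cells are U87MG, an established human glioblastoma line, and RNA was sequenced from 6 libraries. In 3 of them the cells carried a control short hairpin RNA (shControl, genotype NC), and in the other 3 a hairpin against CREPT (shCREPT, genotype CREPT Knockdown), the product of RPRD1B, a protein that attaches to the tail of RNA polymerase II. The labels do not say whether 1 hairpin sequence or several were used, whether the libraries of a group came from separate cultures, or what the oxygen level was, so p-values measure only the spread between these libraries. No group is labelled as hypoxic, and the word describes what the genes are known for.

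In cells with enough oxygen, prolyl hydroxylases mark the alpha subunits of the hypoxia-inducible factors (HIF) and the VHL ubiquitin ligase has them degraded. When oxygen is low the alpha subunit, HIF1A or EPAS1 (HIF-2 alpha), pairs with ARNT or its relative ARNT2 and binds DNA at a short core, ACGTG or GCGTG. The genes switched on in this way promote vessel growth, glucose uptake, acid export, lower mTOR activity and the removal of mitochondria, and in glioblastoma they are known for their high levels around necrotic zones.

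For 3 of the 6 members, CA9, CA12 and DDIT4, the RefSeq promoter table (GRCh38.p14) gave the window of 300 bases from 250 before to 50 after the transcription start. They are printed to show where the core letters lie in genes that are textbook HIF targets and were all lower in shCREPT. Each is written 5′ to 3′ on the gene's own strand, with ACGTG and GCGTG, on either strand, in capitals. CA9 covers chr9:35673678-35673977 on the plus strand, CA12 chr15:63381797-63382096 on the minus strand and DDIT4 chr10:72273674-72273973 on the plus strand.
CA9: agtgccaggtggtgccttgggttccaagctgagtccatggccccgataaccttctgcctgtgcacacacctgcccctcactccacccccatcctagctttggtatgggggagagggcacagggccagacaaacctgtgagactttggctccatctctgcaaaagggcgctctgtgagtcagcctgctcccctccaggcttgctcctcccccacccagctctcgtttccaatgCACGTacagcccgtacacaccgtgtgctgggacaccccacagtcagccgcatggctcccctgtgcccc
CA12: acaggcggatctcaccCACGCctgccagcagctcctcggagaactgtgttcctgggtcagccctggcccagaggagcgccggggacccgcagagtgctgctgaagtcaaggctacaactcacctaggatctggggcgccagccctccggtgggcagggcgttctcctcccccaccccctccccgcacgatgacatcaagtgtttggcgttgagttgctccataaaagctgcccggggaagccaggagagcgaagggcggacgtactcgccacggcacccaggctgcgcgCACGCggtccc
DDIT4: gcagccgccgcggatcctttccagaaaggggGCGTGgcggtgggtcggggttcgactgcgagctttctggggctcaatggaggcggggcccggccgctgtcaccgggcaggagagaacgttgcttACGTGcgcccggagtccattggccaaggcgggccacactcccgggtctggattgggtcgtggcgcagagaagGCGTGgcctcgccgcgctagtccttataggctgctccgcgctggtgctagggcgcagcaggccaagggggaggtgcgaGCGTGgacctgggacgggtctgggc
The CA9 window held 1 core, ACGTG on the opposite strand, from 18 to 14 bases before the start. In CA12 both cores were GCGTG on the opposite strand, from 234 to 230 bases before and from 40 to 44 bases after the start. DDIT4 held 4 cores, all on the gene strand, with ACGTG from 125 to 121 bases before the start and GCGTG from 219 and 53 bases before and 26 bases after it. Such short words are common. Of 35116 RefSeq promoter windows, 21.4% hold ACGTG, 36.5% hold GCGTG and 48.4% hold either, so a match describes the letters and not a bound site. Among listed genes with a window, either core was present in 49.1% of 884 that the authors marked down and in 56.2% of 550 that they marked up. Those windows also differ in base composition, with a median of 61.2% G and C in the down group and 63% in the up group.

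**Figure D1:**
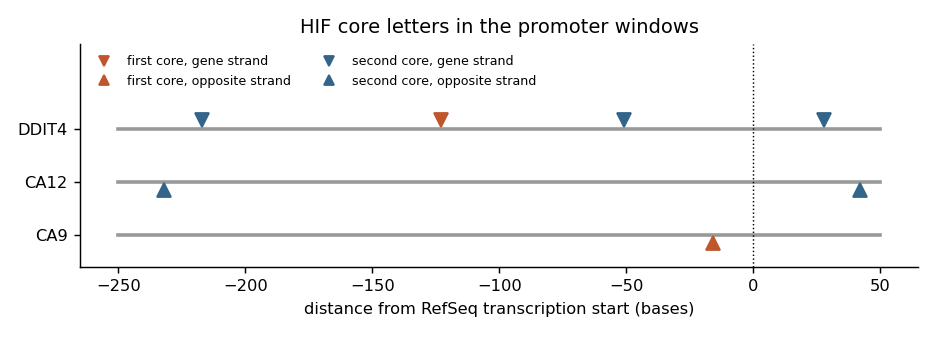
Positions of the HIF core letters in the promoter windows of CA9, CA12 and DDIT4, with distance in bases from the RefSeq start on the horizontal axis. Orange triangles mark ACGTG (first core) and blue triangles GCGTG (second core), pointing down for the gene strand and up for the opposite strand. DDIT4 has 4 cores, CA12 has 2 and CA9 has 1.

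Each of the 6 members was lower in shCREPT than in shControl, in 3 of 3 libraries and with no overlap between the groups, although BNIP3L changed sign and CA12 lost its call when the libraries were rescaled by the median of ratios. Mean levels in shCREPT were between 37.0% (DDIT4) and 61.3% (BNIP3L) of those in shControl. With limma on log2(value + 1) and Benjamini-Hochberg adjustment all 6 passed an adjusted p of 0.05 as lower, and 4 of them, VEGFA, CA9, SLC2A3 and DDIT4, were lower by 1 or more on that scale. The median log2 change of the 6 was −1.14, against −0.76 over all 1184 tested genes. The latter is no typical fall, since it mixes 678 genes that passed as lower with 481 that passed as higher. Every gene of the table had been marked significant by the authors for this same contrast, past a threshold on size and on adjusted p, and 59.7% of the 1630 were marked down, as were all 6 members. Of the tested genes 97.9% passed in either direction, 57.3% as lower, 35.9% as lower by 1 or more, 56.6% were lower with no overlap and 96.8% had no overlap in either direction, so the passes of the members were largely fixed by the selection. An exact two-sided permutation test of 3 against 3 libraries gave p = 0.1 for each member, the smallest it allows. Levels are the authors' normalized values, whose scaling by gene length is unknown, so they are compared between libraries and not between genes.

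VEGFA encodes the secreted growth factor that drives the sprouting of blood vessels (ENSG00000112715, chromosome 6, 43770184 to 43786487, plus strand, GRCh38). Its normalized expression was 548.7, 554.46 and 572.37 in the shControl libraries and 243.96, 237.29 and 243.64 in the shCREPT libraries. The libraries of each group lay close together, with a coefficient of variation of 2.21% in shControl and 1.56% in shCREPT, and the groups were far apart. The level fell from 559 ± 12.3 to 242 ± 3.76 (SD, n = 3), and its log2 change was −1.21 ± 0.07 (SE), with an adjusted p of 1.37e-05 from limma. KDR, the main VEGFA receptor of endothelial cells and the other listed gene of the VEGF ligands and receptors, fell from 11.1 ± 0.523 to 5.27 ± 0.492 (log2 change −0.95 ± 0.09 SE, limma adjusted p = 7.02e-05). The remaining 8 genes of that list, among them the ligands VEGFB, VEGFC and PGF and the receptors FLT1, NRP1 and NRP2, have no row and were not analysed here.

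CA9 and CA12 are membrane carbonic anhydrases with an active site outside the cell, where they turn carbon dioxide into bicarbonate and protons. CA9 (ENSG00000107159, chromosome 9, 35673856 to 35681159, plus strand) read 147.51, 131.48 and 137.08 in shControl and 60.63, 46.76 and 61.79 in shCREPT. Replicate 2 was the lowest library of each group, and no shCREPT library reached the shControl range. The level fell from 139 ± 8.14 to 56.4 ± 8.36 (SD, n = 3; log2 change −1.29 ± 0.13 SE, limma adjusted p = 8.49e-05). CA12 (ENSG00000074410, chromosome 15, 63321378 to 63382161, minus strand) had values of 5.95, 4.59 and 5.56 in shControl and 3.36, 2.3 and 2.22 in shCREPT. Its coefficient of variation was 13.0% in shControl and 24.2% in shCREPT, the latter the highest of the 6 members, and the groups were separated by 4.59 against 3.36. On the log2 scale it changed by −0.82 ± 0.15 (SE), with a limma adjusted p of 0.00163, and the linear ratio of means was 2.04-fold lower, since the pseudocount of 1 shrinks a gene at this level.

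The other listed carbonic anhydrases did not all go the same way. CA2, a cytosolic enzyme, rose 2.18-fold from 1.51 ± 0.455 to 3.28 ± 0.393 (SD, n = 3; log2 change 0.78 ± 0.16 SE, limma adjusted p = 0.00245). CA11, a relative that lacks catalytic activity, fell from 22.5 ± 1.93 to 9.73 ± 0.288 (log2 change −1.13 ± 0.09 SE, limma adjusted p = 3.39e-05). CA4, a lipid-anchored enzyme, was too low to be tested, at 0.99, 1.52 and 1.74 in shControl and 0.24, 0.17 and 0.41 in shCREPT. Of the 21 genes of the carbonic anhydrase and pH list 16 have no row, among them the lactate exporter SLC16A3.

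SLC2A3 encodes GLUT3, a glucose transporter of high affinity that neurons also use (ENSG00000059804, chromosome 12, 7919230 to 7936275, minus strand). It read 19.13, 20.42 and 20.32 in shControl and 9.53, 8.36 and 9.02 in shCREPT. Both groups were tight, and the highest shCREPT library lay well under the lowest shControl library. The level fell from 20.0 ± 0.718 to 8.97 ± 0.587 (SD, n = 3; log2 change −1.07 ± 0.08 SE, limma adjusted p = 3.15e-05). SLC2A3 has a near-identical neighbour, SLC2A14, which has no row, so how reads were divided between the copies is uncertain. The 2 other listed transporters of 11 fell too, SLC2A10 (GLUT10) 3.64-fold and SLC2A12 (GLUT12) 3.44-fold, with log2 changes of −1.61 ± 0.10 and −1.25 ± 0.08 (SE; limma adjusted p = 1.51e-05 and 1.84e-05). From 22 genes of glycolysis and glycogen only PDK3, a kinase that holds pyruvate dehydrogenase in check, and the aldolase ALDOC have a row. Their means fell 2.35-fold and 2.46-fold, with log2 changes of −1.04 ± 0.14 and −0.70 ± 0.15 (SE; limma adjusted p = 0.000414 and 0.0033). ALDOC was low, with means of 1.93 in shControl and 0.783 in shCREPT, where the pseudocount of 1 shrinks the log2 change. The transporter SLC2A1 and the enzymes HK2, PGK1, LDHA and PDK1, which are often used as hypoxia markers, have no row.

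DDIT4 (REDD1), which restrains mTORC1 under low oxygen and other stress, had the lowest share left of the members (ENSG00000168209, chromosome 10, 72273920 to 72276036, plus strand). Its values were 270.34, 248.14 and 240.53 in shControl and 91.81, 88.94 and 100.27 in shCREPT. The highest shCREPT library, at 100.27, lay far under the lowest shControl library, at 240.53. It fell 2.70-fold, from 253 ± 15.5 to 93.7 ± 5.89 (SD, n = 3; log2 change −1.42 ± 0.09 SE, limma adjusted p = 1.56e-05). Its paralogue DDIT4L had low values throughout and fell from 1.32 ± 0.285 to 0.21 ± 0.0608 (limma adjusted p = 0.000195). Of the 12 genes of mTOR restraint and stress 6 have a row, and 5 passed as lower. SESN3, a sestrin that also restrains mTORC1, fell from 39.0 ± 1.32 to 7.74 ± 0.653, and TXNIP, which limits glucose uptake, from 60.2 ± 4.41 to 11.7 ± 1.48 (SD, n = 3; log2 changes −2.20 ± 0.09 and −2.27 ± 0.12 SE, limma adjusted p = 5.22e-06 and 9.08e-06). Both falls were larger than that of any member. BHLHE41, a repressor of the circadian and hypoxic responses that was named after its values were seen, did not pass, with overlapping values of 20.65, 13.64 and 34.1 in shControl and 15.76, 13.69 and 11.84 in shCREPT (limma adjusted p = 0.0952). The log2 ratio of its mean values is −0.73, whereas the authors' log2 fold is −1.47, a gap of 0.74 that was not tested further.

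BNIP3L (NIX) sits in the outer mitochondrial membrane and recruits the autophagy machinery for mitophagy (ENSG00000104765, chromosome 8, 26382898 to 26505636, plus strand). It read 86.44, 107.6 and 113.71 in shControl and 61.68, 58.08 and 68.91 in shCREPT. The groups did not overlap, but shControl replicate 1 lay nearer to the shCREPT libraries than the other shControl libraries did. The level fell 1.63-fold, from 103 ± 14.3 to 62.9 ± 5.52 (SD, n = 3; log2 change −0.69 ± 0.13 SE, limma adjusted p = 0.00186), which became 0.18 under median-of-ratios rescaling (limma adjusted p = 0.252). Without shControl replicate 1 the log2 change was −0.81. In the authors' deposited table the log2 fold of BNIP3L is −1.21, whereas the log2 ratio of its mean values is −0.71, a gap of 0.50. For the other 5 members that gap was between 0.0095 and 0.096 in size. Over 603 genes with a mean value above 5 the median gap was −0.017. In size, 11 of them, BNIP3L itself included, had a gap at least as large as that of BNIP3L. The gap was not tested further, and the fold of BNIP3L is uncertain to that extent. The related BNIP3 and the other 6 genes fixed for this form of mitophagy have no row.

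**Figure D2:**
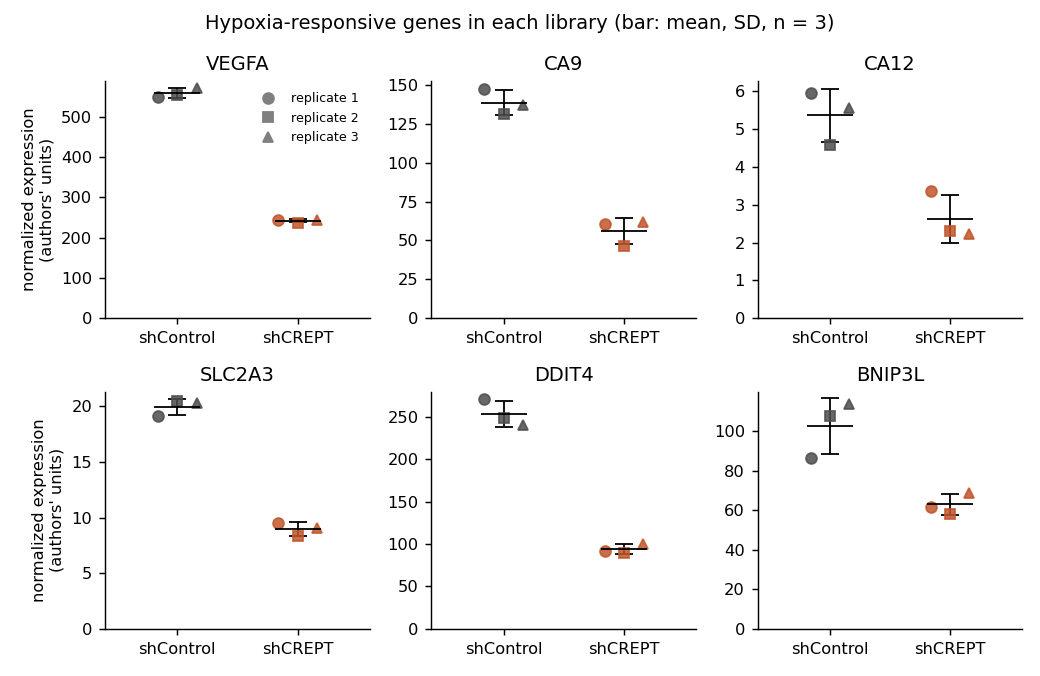
Normalized expression of the 6 members (vertical axis, the authors' units, starting at 0) in each shControl (grey) and shCREPT (orange) library, with the replicate number as the marker shape and the mean ± SD (n = 3) in black. The groups do not overlap in any panel. The gap is widest relative to the spread for VEGFA, and CA12 and BNIP3L show the groups closest together, and BNIP3L is the member whose sign changed when libraries were rescaled by the median of ratios.

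The scaling of the libraries set the size of these falls. When the log2 ratio of mean values was set against the fold given by the authors' deposited table, on the log2 scale, the median absolute gap over the 603 genes was 0.051, and 67.3% of them had a gap under 0.1. Median-of-ratios rescaling, which treats the typical listed gene as unchanged, moves every shCREPT value up against shControl by 0.88 on the log2 scale and moved the median of all tested genes by 0.67, to −0.08. Under it the log2 changes were −0.33 for VEGFA, −0.42 for CA9, −0.26 for SLC2A3 and −0.55 for DDIT4, all still past the threshold (limma adjusted p = 0.00542, 0.0211, 0.03 and 0.00118). CA12 was at −0.13 (limma adjusted p = 0.456) and BNIP3L at 0.18. The share of lower genes among all calls went from 58.5% to 39.7%, and 29.6% of tested genes passed as lower. The median change of the members was then −0.29. Quantile normalization moved the median of all tested genes by 0.24 and left all 6 members lower and past the threshold, with 53.4% of tested genes lower. Every listed gene was marked as changed by the authors, and 59.7% were marked down. By those marks the typical listed gene was lower, whereas median-of-ratios rescaling takes it as unchanged. Its shift of 0.88 can thus take away part of a real fall. The CA12 and BNIP3L values under that rescaling therefore do not show whether their falls are fragile. The table holds no unchanged genes against which to choose between these scalings.

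**Figure D3:**
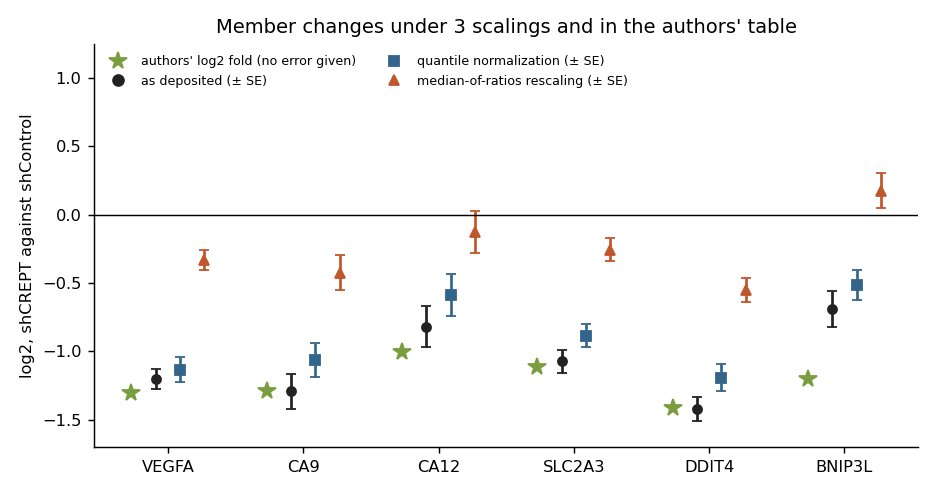
Log2 difference between shCREPT and shControl (vertical axis) for each member in the authors' deposited table (stars) and, as log2 changes ± SE, from the deposited values (circles), after quantile normalization (squares) and after median-of-ratios rescaling (triangles). Only the rescaled BNIP3L value, 0.18, lies above 0, and its star at −1.21 stands apart from its circle at −0.69.

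Ratios of 2 members within a library, taken without a pseudocount, do not depend on a single scaling factor per library, as in median-of-ratios rescaling. They can depend on quantile normalization, under which they were not computed. In 6 of the 15 pairs the ratios of the groups did not overlap, and 4 of those 6 involved BNIP3L. How often the ratios of other tested genes separate was not counted, so these counts have no background. Of single tested genes 96.8% had no overlap in either direction. The log2 ratio of DDIT4 to BNIP3L was lower in shCREPT by 0.73, that of CA9 to BNIP3L by 0.61, that of VEGFA to BNIP3L by 0.51 and that of SLC2A3 to BNIP3L by 0.46. The 2 pairs without BNIP3L both set a member against DDIT4, with log2 ratios higher in shCREPT by 0.22 for VEGFA to DDIT4 and by 0.28 for SLC2A3 to DDIT4. VEGFA against CA9, at 0.10, overlapped between groups. Each pair without overlap had an exact two-sided permutation p of 0.1, the smallest for 3 against 3 libraries, and an adjusted p of 0.25 over the 15 pairs, so no pair passed. The ratios carry the deposited values of BNIP3L, whose fold differs from that of the authors.

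Of the 125 genes fixed in 9 lists for the oxygen response, the 6 members included, 25 have a row and 23 could be tested. Among the 17 tested genes that are no members 14 passed as lower, 2 as higher and 1 did not pass. Of all tested genes 57.3% passed as lower and 97.9% in either direction. Against −0.76 over all tested genes, a median over both directions, the median log2 change of these non-member genes was −1.01. Under median-of-ratios rescaling 6 of 16 such genes passed as lower and 2 as higher, where 29.6% of all tested genes passed as lower, and the genes named here that kept their direction but lost their call were EPAS1, KDR, EDN1, IGFBP3, PDK3, ALDOC and NDRG1. The lists were drawn up with earlier results of these data known, and these counts describe a selected table. The other 100 genes have no row, which tells neither their level nor whether they changed.

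The HIF subunits themselves gave 2 rows that went opposite ways. EPAS1 (ENSG00000116016, chromosome 2, 46293667 to 46386703, plus strand), the alpha subunit of HIF-2, read 57.23, 59.12 and 62.79 in shControl and 32.22, 26.24 and 29.34 in shCREPT. The groups did not overlap, and the level fell 2.04-fold (log2 change −1.01 ± 0.10 SE, limma adjusted p = 8.65e-05), although the call was lost under median-of-ratios rescaling at −0.15. ARNT2, a partner subunit expressed in neural tissue, rose from 1.71 ± 0.203 to 5.51 ± 0.495 (SD, n = 3), which is 3.22-fold higher (log2 change 1.27 ± 0.10 SE, limma adjusted p = 3.31e-05). HIF1A, ARNT, VHL and the prolyl hydroxylases EGLN1, EGLN2 and EGLN3 have no row and were not analysed here.

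Among secreted factors, the vasoconstrictor peptide EDN1 fell 2.45-fold and the IGF-binding protein IGFBP3 fell 2.20-fold. Their log2 changes were −0.74 ± 0.11 and −1.01 ± 0.24 (SE; limma adjusted p = 0.000577 and 0.00504). EDN1 was low, with means of 2.11 in shControl and 0.86 in shCREPT. The other 9 genes of that list, ADM and ANGPTL4 among them, have no row. LOX, which crosslinks collagen and is a known HIF target, fell 5.26-fold, from 88.2 ± 3.38 to 16.8 ± 0.414 (SD, n = 3; log2 change −2.33 ± 0.08 SE, limma adjusted p = 2.43e-06). The chemokine receptor CXCR4 was left untested for its low level and is listed at 0.8, 0.58 and 0.91 in shControl and at 0.03, 0 and 0 in shCREPT.

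**Figure D4:**
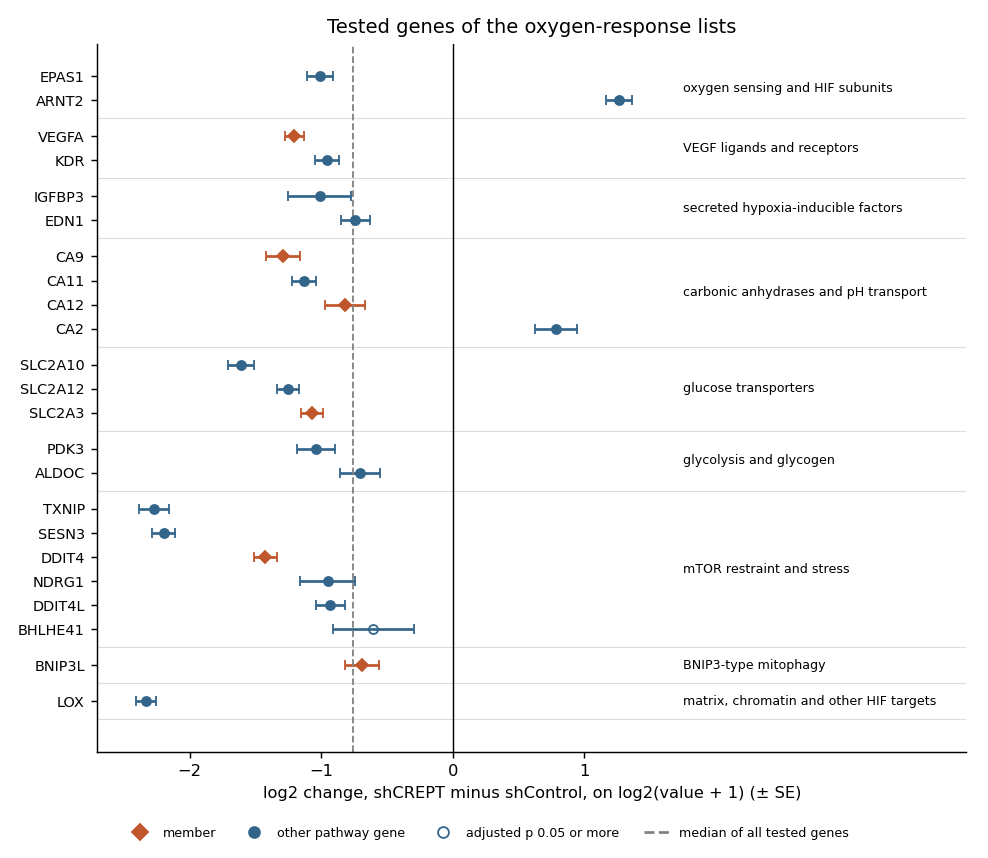
Log2 change on log2(value + 1), shCREPT minus shControl, with its SE (horizontal axis) for the 23 tested genes of the oxygen-response lists. Orange diamonds are the members, blue circles the other genes, the open circle is BHLHE41, which did not pass, and the dashed line is the median of all tested genes, −0.76. ARNT2 and CA2 lie to the right of 0 and the other genes to the left, though BNIP3L moved to the right of 0 when libraries were rescaled by the median of ratios.

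Within the groups, the libraries differed in a way that several of these genes shared. Replicate 2 was the lowest shCREPT library for 5 of the 6 members, the exception being CA12, and for 65.2% of the 23 tested pathway genes, against 29.5% of all tested genes. In CA9 it stood at 0.829 of its group mean. Replicate 2 was the lowest library of both groups for 5 of those 23 genes (21.7%), against 9.21% of all tested genes. NDRG1, a stress protein widely used as a hypoxia marker, read 126.34, 88.4 and 135.47 in shControl and 64.65, 46.69 and 67.71 in shCREPT. Replicate 2 was thus at 0.757 and 0.782 of its group means, and the fall between groups was 1.96-fold (log2 change −0.95 ± 0.21 SE, limma adjusted p = 0.00389). IGFBP3 also had its lowest value of each group in replicate 2, at 0.703 and 0.716 of the group means. Replicate 2 was singled out after the values were seen, and a link between same-numbered libraries was not given in the labels. Without replicate 2 in both groups all 6 members stayed lower with adjusted p of 0.00125 to 0.0297 (limma). In that setting 862 of 925 tested genes passed, and 494 passed as lower.

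**Figure D5:**
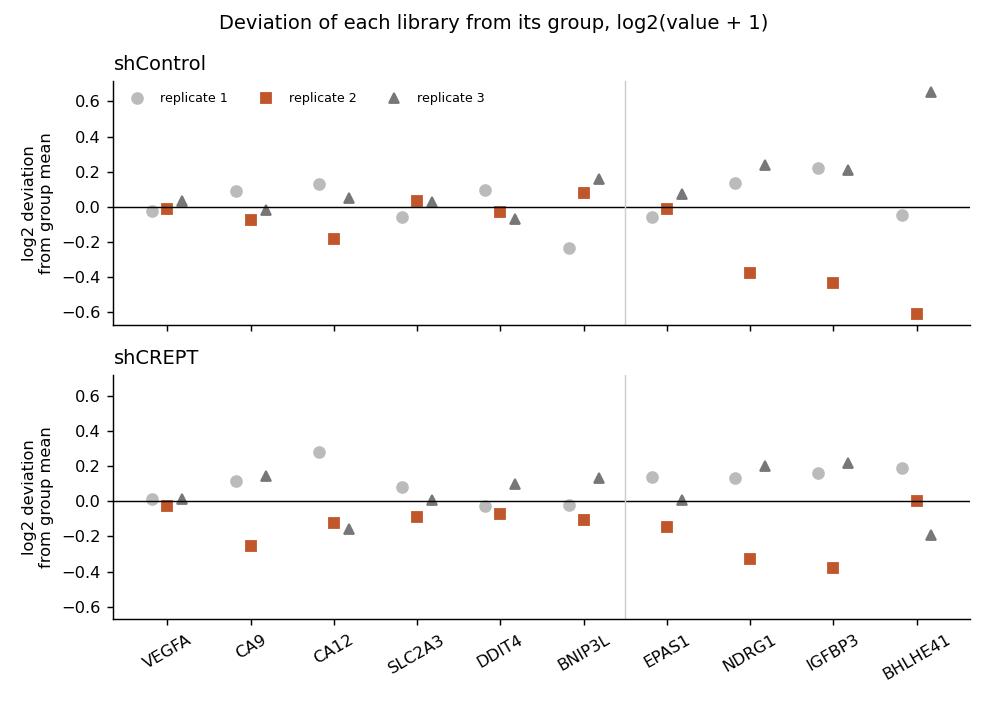
Deviation of each library from its group mean on log2(value + 1) (vertical axis) for the 6 members and, right of the line, for EPAS1, NDRG1, IGFBP3 and BHLHE41, with shControl above and shCREPT below. Orange squares are replicate 2, which lies lowest in shCREPT for 5 members and lowest in both groups for CA9, NDRG1 and IGFBP3.

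Across the 6 libraries SLC2A3 came nearest to the mean profile of the members, of which it is one itself, with a Euclidean distance of 0.0948 on centred log2(value + 1). Among 715 other tested genes with a mean of at least 5 in the higher group, the 5 nearest were CRELD2 (0.113), LINC00461 (0.137), MYORG (0.138), EPAS1 (0.145) and STEAP3 (0.148). These 5 genes had log2 changes of −1.01 to −1.09. The distance depends largely on the size of the group difference, and 35.9% of all tested genes passed as lower by 1 or more. Nearness therefore describes a change of like size, and shared regulation was not tested. BNIP3L was the member farthest from the mean profile, with 229 of the other genes nearer.

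RPRD1B has no row in this table of genes that the authors marked significant, so the knockdown itself was not checked. Of 11 markers of glioblastoma and astrocytes 3 have a row, GFAP, S100B and SLC1A3, and their summed level was 498 to 528 in shControl and 72.5 to 88.9 in shCREPT, with S100B at 0 in a shCREPT library. The endothelial markers CDH5 and KDR, 2 of 6 with a row, summed to 43.3 to 45.3 in shControl and 11.6 to 13.7 in shCREPT, and COL1A2, 1 of 6 fibroblast and pericyte markers, went from 1084 to 1099 in shControl to 432 to 492 in shCREPT. Rows are lacking for all 8 macrophage and microglia markers and all 5 T cell markers. These markers moved with the members, and their part in the results was not tested. All 6 libraries are labelled U87MG, so the marker names describe what the genes are known for and not cell types known to be present. In bulk RNA, fewer cells with a transcript and less of it per cell cannot be told apart. The listed values summed to between 31894 and 33331 in each library, and the number of reads behind them is unknown.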

How the data were processed

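Total RNA of 6 libraries was sequenced, per the labels' protocols from NEBNext Ultra libraries. HISAT2, HTSeq and GRCh38 are named in the submitters' processing notes, with no version or role. The deposited table holds, per the file headers, normalized expression per library, treated as a linear signal of unstated normalization and unknown depth. The authors' fold change stands beside it, both as a ratio and on the log2 scale, together with the authors' p-value before and after adjustment. Every listed gene carries the authors' mark of significance. Values of 0.01 to 0.29 filled 28 to 29 of the 29 possible hundredths in each library, which shows no single-read step, so no reads were recovered and no count test was run. The sources used here do not say whether the libraries keep the strand.

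Values were transformed as log2(value + 1), and a gene was tested if 3 or more libraries reached a value of 1, which 1184 did and 446 did not. The test was limma 3.58.1 under R 4.3.3, with Benjamini-Hochberg adjustment over all tested genes. The step was tested on simulated data in which most genes were unchanged and no value was low. Neither holds for this table, so that test does not cover its conditions. Differences are shCREPT minus shControl. Single values and ratios used exact permutation tests (scipy 1.17.1). Positions came from GENCODE 29 and promoters from RefSeq (GRCh38.p14), matched by symbol for 3 members. The members and lists were chosen with earlier results of these data known. Named genes were the members, up to 4 further genes of each list, and the 5 nearest patterns. Alternatives were pseudocounts of 0.1 and 5, other filters and scalings, the trend and robust options of limma, a block for the replicate number, and each library left out. No library was a copy of another, since at least 96.0% of genes had different values in any pair.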

Additional observations from a re-analysis of the deposited data

How the results depend on the processing

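The members VEGFA, CA9, SLC2A3 and DDIT4 stayed lower and past the threshold of limma under all 16 alternatives run, leaving out each library included, with log2 changes of −1.22 to −0.33, −1.36 to −0.42, −1.15 to −0.26 and −1.47 to −0.55. Under median-of-ratios rescaling, which takes the typical selected gene as unchanged, CA12 was −0.13 and no longer past the threshold, and BNIP3L turned to 0.18. Both stayed lower and past the threshold under every other alternative that tested them. That rescaling also gave 345 lower genes in all in place of 678, 10 lower pathway genes in place of 20, and took the call from 9 of the 19 other named genes it tested, DDIT4L being left out by the filter (ALDOC, CRELD2, EDN1, EPAS1, IGFBP3, KDR, LINC00461, NDRG1 and PDK3). A minimum of 10 in 3 libraries left fewer genes to test, 485 changed in place of 1159 (214 higher, 271 lower), with 13 of 14 pathway genes lower and 0 higher in limma, 0 also at an unadjusted p under 0.05; CA12, ARNT2 and CA2 are below that minimum. The count of member pairs without overlap was 6 with a pseudocount of 0.1 and 6 with none, in place of 10 with 1. The 4 pairs lost were VEGFA, CA9 and DDIT4 each with CA12, and VEGFA with SLC2A3. Only the pseudocount differed between these runs. The log2 ratio of VEGFA to CA12 changed by −0.16 with none, −0.39 with 1 and −0.75 with 5. Leaving out 1 library gave 1000 to 1057 changed genes and 17 to 20 lower pathway genes. Same-numbered libraries did not deviate together over all tested genes (r = −0.11, 0.018 and −0.18), so the numbers were not treated as pairs. With the replicate number as a block (replicate block), 1156 genes passed and no call of a member changed. Leaving out replicate 2 in both groups was chosen after the data were seen. Depth is unknown and sets no bound.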
